A study of Mus musculus with 2 samples.

Results

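The 8 genes described here make, load or control MHC class II molecules: H2-Aa, H2-Ab1, H2-Eb1, Cd74, H2-DMa, H2-DMb1, Ctss and Ciita. They were chosen by gene symbol, and all 8 were found among the 31053 genes of the matrices. The data are single-cell RNA profiles of cells from colonic crypts, isolated when the C57BL/6 mice were 4 weeks old. The Mettl14_cKO library came from M14(f/f);Villin-Cre mice, whose Cre recombinase is made in gut epithelial cells, and the control library from M14(f/f) mice without Cre, so both carried the floxed alleles. M14 was read as Mettl14, a subunit of the enzyme that writes N6-methyladenosine on RNA. Each genotype is 1 library, made from the pooled cells of 3 mice. No test and no error between mice was possible. Every interval below is a 95% interval for counting error only, and a difference is called where it passes 2-fold after adding 1 to both values.

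Class II molecules present peptides from the endosome to CD4 T cells. Macrophages, dendritic cells and B cells carry them at all times, and gut epithelial cells make them when interferon-gamma induces Ciita, the master switch of the class II genes. The invariant chain Cd74 fills the groove of the newly made molecule, cathepsin S (Ctss) trims it, and H2-DM exchanges the remnant for a peptide. The class II genes share an upstream module of X and Y boxes, bound by RFX, CREB and NF-Y, to which Ciita is recruited.

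H2-Aa, H2-Ab1 and H2-Eb1 (the alpha chain of I-A, its beta chain and the beta chain of I-E) lie close together on mouse chromosome 17, at 34282744 to 34287823, 34257689 to 34269419 and 34305867 to 34316674 (GRCm38, GENCODE M21). H2-DMa and H2-DMb1 lie on the same chromosome, at 34119541 to 34139101 and 34153072 to 34160230. Ciita (chromosome 16, 10480059 to 10528418) and Ctss (chromosome 3, 95526786 to 95556403) lie elsewhere, as does Cd74.

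RefSeq's upstream sequences (GRCm38.p6) were searched because the chain genes moved together in these data. H2-Aa, H2-Eb1, H2-DMa, H2-DMb1 and Ctss were in the table, with 6 windows in all. H2-Ab1, Cd74 and Ciita were not in it. The stretches that hold an X-like box CTNGNAAC and the Y box ATTGG, both in capitals, are shown for the alpha and the beta chain gene, 5′ to 3′ on the strand of the gene.
H2-Aa, minus strand of chr17:34287842-34287932: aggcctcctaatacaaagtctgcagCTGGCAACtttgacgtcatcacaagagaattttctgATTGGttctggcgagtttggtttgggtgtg
H2-Eb1, plus strand of chr17:34305748-34305837: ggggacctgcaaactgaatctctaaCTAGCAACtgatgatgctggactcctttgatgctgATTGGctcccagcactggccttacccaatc
The boxes are 28 bases apart in H2-Aa and 27 bases apart in H2-Eb1, and the X-like box begins 84 and 94 bases before the annotated start. H2-DMb1 holds the same pair, with an X-like box that begins 97 bases before its start and a gap of 28 bases that is the same as in H2-Aa. The RefSeq start used for H2-DMb1 lies downstream of the GENCODE start given above, so its boxes lie inside the GENCODE gene and the stretch overlaps an annotated exon. Of 32851 upstream windows of 250 bases, 0.283% held CTNGNAAC followed by ATTGG after 10 to 35 bases on either strand. The letters CTNGNAAC were chosen after the sequences had been read. The stricter X box CCTAGNNAC was found in H2-DMb1 only, among the members, and in 3.37% of all windows. Also planned in advance, TTCNNNGAA, a site for STAT factors, was in 0 of the 6 windows of the members and in 7.02% of all windows. ATTGG alone stood in 33.8% of windows, among them 1 window of H2-DMa. Both strands were searched, and a match is a run of letters, not a shown binding site.

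The Mettl14_cKO library held 9225 barcodes with 89729527 UMIs and the control library 10181 barcodes with 111239295 UMIs. After filtering, 7072 Mettl14_cKO and 9077 control cells were kept, 6049 and 8695 of them epithelial-like, with medians of 8700 and 10400 UMIs. The libraries shared 33 barcodes, 15 of them among kept cells. Immune cells were unevenly captured: 167 macrophage-like, 139 B-like and 215 neutrophil-like Mettl14_cKO cells stood against 6, 0 and 0 control cells. Levels of class II genes in control macrophages therefore rest on 6 cells. Mettl14 had 5.06 CPM (UMIs per 1000000, from 417 UMIs) in Mettl14_cKO epithelium and 4.77 CPM (514 UMIs) in control epithelium. The deleted exons are not given, so this level checks nothing. Xist stood at 338 and 0.0629 CPM, and 4 Y chromosome genes at 0.0780 and 103.5 CPM, so genotype and sex cannot be told apart in any result here.

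Class II chain RNA was much lower in Mettl14_cKO epithelium than in control epithelium, and so were both H2-DM genes. Cd74 and Ctss were lower to a smaller degree. Ciita was lower too, with 3 and 94 UMIs, but under 1 CPM in both libraries it did not pass 2-fold once 1 CPM was added. Of the 8 members, 6 were at least 2-fold lower and 0 at least 2-fold higher, where 3.68% of the 16432 genes compared were that much lower and 5.98% that much higher. The median log2 ratio of the members was -2.48, and that of all genes 0.04.

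The chains differed by unequal amounts. H2-Ab1 had 4.06 CPM (335 UMIs) in Mettl14_cKO epithelium and 60.9 CPM (6568 UMIs) in control epithelium, 14.99-fold lower (13.4 to 16.8). H2-Aa had 2.81 CPM (232 UMIs) and 24.7 CPM (2667 UMIs), 8.79-fold lower (7.68 to 10.1). H2-Eb1 had 6.02 CPM (496 UMIs) and 31.3 CPM (3378 UMIs), 5.21-fold lower (4.74 to 5.73). All 3 chains were thus lower in the Mettl14_cKO library by more than counting error, with H2-Eb1 the least. Their sum, called the chain sum below, had 12.9 CPM and 117 CPM, 9.07-fold lower (8.52 to 9.67). A single Mettl14_cKO cell held 230 of the 1063 chain UMIs of its epithelium, and without it the sum was 10.1 CPM. Its cluster (cluster 11) had 14.98 CPM of H2-Aa, 12.05 of H2-Eb1 and 10.66 of H2-Ab1 in Mettl14_cKO cells. The folds of the single chains and their order were not recomputed without this cell.

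The loading machinery split into genes that followed the chains and genes that did not. H2-DMa and H2-DMb1, the chains of the peptide exchanger H2-DM, had 0.861 and 0.461 CPM in Mettl14_cKO epithelium and 13.4 and 13.7 CPM in control epithelium. These are differences of 15.6-fold (12.3 to 20.1) and 29.8-fold (21.6 to 42.3). H2-DMb2 shares 18.6% of the 60-base stretches found near the 3′ ends (500 bases) of H2-DMb1 transcripts, so reads of this pair could have been split. Cd74, the invariant chain, was less far apart. It had 192.5 CPM (15866 UMIs) in Mettl14_cKO epithelium and 355 CPM (38281 UMIs) in control epithelium, 1.84-fold lower (1.81 to 1.88). Ctss, the protease that trims the invariant chain, had 38.9 and 83.4 CPM, 2.14-fold lower (2.06 to 2.23). By class, Ctss was 1.24-fold lower in cycling-like, 1.94-fold in goblet-like, 1.37-fold in colonocyte-like cells and 2.63-fold in the unnamed clusters. Its ratio in enteroendocrine-like cells was 1.12 (0.78 to 1.60). Colonocyte-like cells, 351 in Mettl14_cKO and 1876 in control, held 587 of 3209 and 4864 of 8996 Ctss UMIs. The pooled Ctss value thus weighs the classes differently in each library. Ciita, the regulator, was sparse in both libraries. It had 3 UMIs in Mettl14_cKO epithelium and 94 UMIs in control epithelium, which is 24.0-fold lower in CPM with a wide interval of 7.95 to 118. On the scale with 1 CPM added its log2 ratio was only -0.85, under the 2-fold line.

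**Figure D1:**
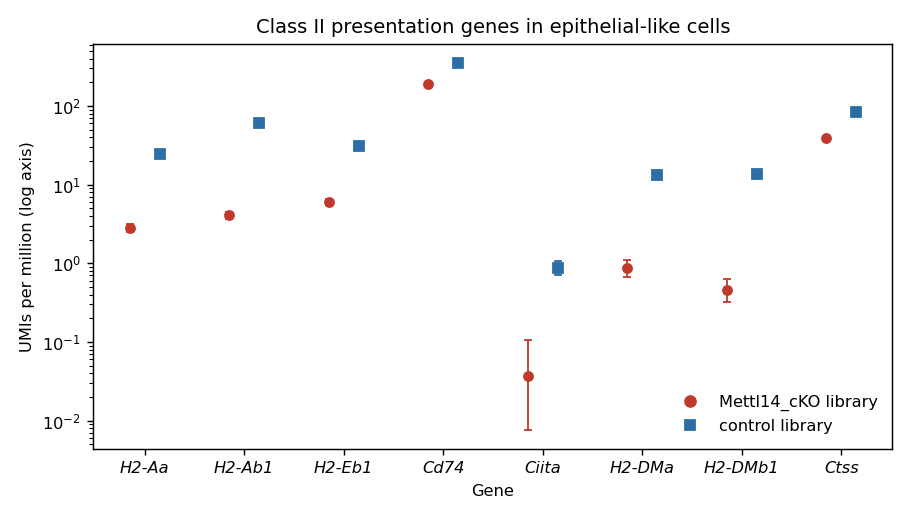
Level of each of the 8 genes in epithelial-like cells, in CPM on a log axis, for the Mettl14_cKO library (red circles) and the control library (blue squares), with 95% counting intervals. Every red circle lies below its blue square, by the least for Cd74 (192.5 against 355) and Ctss (38.9 against 83.4).

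The lower chain sum was seen in each epithelial class with at least 50 cells in both libraries, with the lowest ratio to control in the cycling-like crypt cells. That place was lost to colonocyte-like cells with doublets kept (log2 ratio -3.11 in cycling-like and -3.43 in colonocyte-like cells) and with the strict cell filter (-3.84 and -4.04). Over all alternatives the cycling-like log2 ratio lay between -5.99 and -3.11. Control cycling-like cells had the highest chain sum of the epithelial classes, so the order of the classes differed between the libraries. The cycling-like chain sum was 8.38 CPM (229 UMIs) in Mettl14_cKO cells and 229 CPM (5815 UMIs) in control cells, 27.3-fold lower (23.9 to 31.3). Absorptive colonocyte-like cells had 10.1 CPM (44 UMIs) and 102 CPM (2692 UMIs), 10.1-fold lower (7.503 to 13.9). Mucus-making goblet-like cells had 12.5 CPM (427 UMIs) and 69.2 CPM (3170 UMIs), 5.52-fold lower (4.99 to 6.12). The remaining classes had fewer cells or no name. Hormone-making enteroendocrine-like cells had 30.3 CPM (62 UMIs) and 127 CPM (264 UMIs), 4.18-fold lower (3.16 to 5.61). In the Mettl14_cKO library 2 of these cells held 21 and 15 of the 62 UMIs, with 11 and 12 UMIs of B markers. Epithelial clusters without a name had 20.1 CPM (290 UMIs) and 84.9 CPM (653 UMIs), 4.215-fold lower (3.665 to 4.86). A single Mettl14_cKO cell held 230 of those 290 UMIs, and without it the unnamed clusters had 4.18 CPM (3.19 to 5.38). Tuft-like cells, with 44 and 50 cells, had 56.2 CPM (11 UMIs) and 66.1 CPM (19 UMIs), a ratio of 0.851 whose interval of 0.366 to 1.88 holds no direction. Of those 11 UMIs, 10 came from 1 cell with 13 UMIs of macrophage markers and 0 of Epcam.

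Counted by gene, 7 of 8 members were at least 2-fold lower in cycling-like cells (4.41% of all genes), all but Ctss. In goblet-like cells 6 of 8 were (5.36%), and in colonocyte-like cells also 6 of 8 (8.58%). In enteroendocrine-like cells 6 of the 7 members with at least 10 UMIs were (9.29%), and in the unnamed clusters 5 of 7 (3.76%). Tuft-like cells, under 50 in the Mettl14_cKO library, were not counted. No member was at least 2-fold higher in any of these classes, where the share of all genes that was higher ran to 7.59% for the cycling-like class, 5.41% for goblet-like cells, 9.19% for colonocyte-like cells, 14.1% for enteroendocrine-like cells and 8.03% for the unnamed clusters. Ciita had 0 UMIs in the Mettl14_cKO cells of the cycling-like, the goblet-like and the colonocyte-like class, where control cells had 37, 17 and 37 UMIs. Set against a floor of 3 UMIs for the class, that is at least 13.3-fold, 4.215-fold and 2.04-fold lower. H2-DMa and H2-DMb1 had 1 UMI each in Mettl14_cKO colonocyte-like cells, against 518 and 318 UMIs in control cells.

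**Figure D2:**
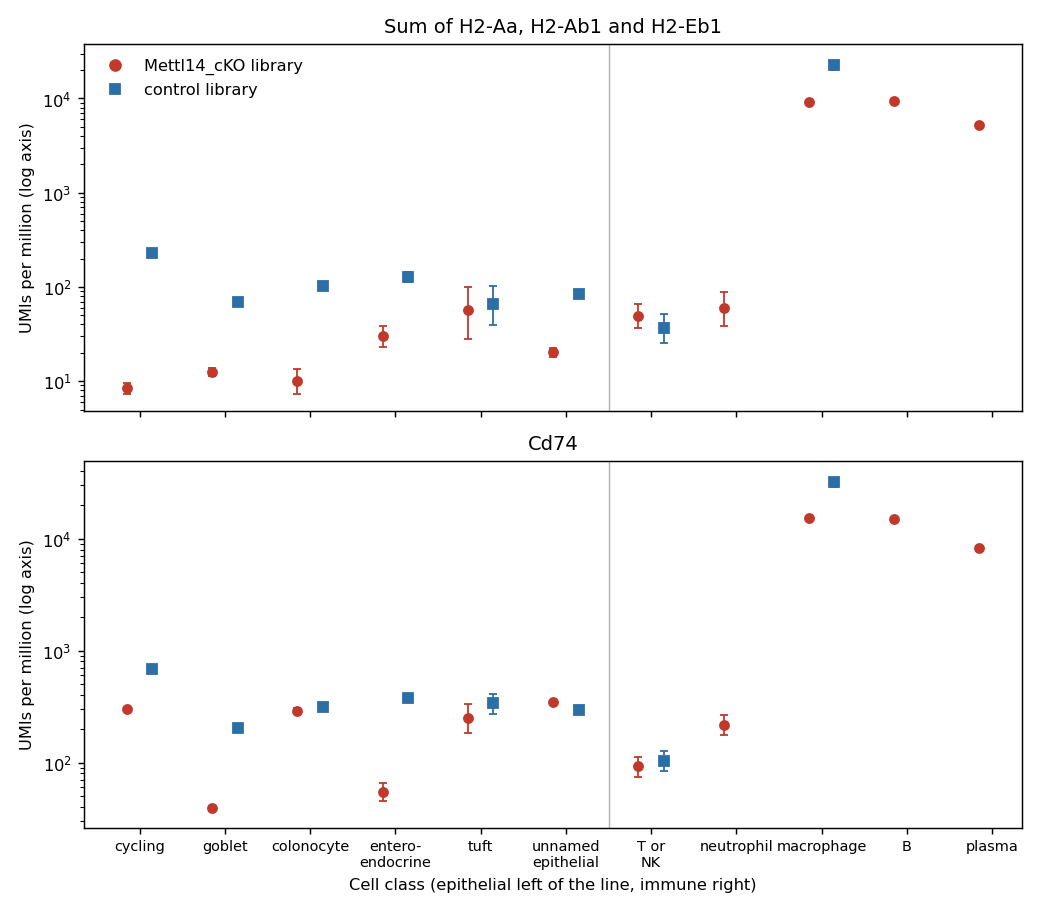
Chain sum (top) and Cd74 (bottom) in CPM on log axes for each cell class, Mettl14_cKO in red and control in blue, with 95% counting intervals; classes of a library with fewer than 6 cells are not drawn. The chain sum of the Mettl14_cKO epithelial classes lies at or under the level of T or NK-like cells of the same library except in tuft-like cells, while Cd74 of the colonocyte-like cells is nearly level between libraries (291 and 312).

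Cells of the same class sat mostly in different clusters in the 2 libraries. Of the Mettl14_cKO cycling-like cells 92.1% were in cluster 0, and of the control ones 65.5% were in cluster 2 and 34.4% in cluster 10. Goblet-like cells were mostly in clusters 3 and 6 in the Mettl14_cKO library and in clusters 9, 15 and 17 in the control library, and colonocyte-like cells in cluster 4 against clusters 8 and 18. Class II genes had been left out of the genes used for clustering. The difference in the chain sum was also present between cells of the same cluster. In cluster 2, led by Pclaf and Ube2c, the 71 Mettl14_cKO cells had 1.89 CPM (4 UMIs) and the 938 control cells 262 CPM (3531 UMIs). In clusters 1 and 5, split more evenly and with no name, Mettl14_cKO cells had 8.10 and 3.57 CPM and control cells 196 and 240 CPM. Enteroendocrine-like clusters 14 and 24 had 25.9 and 38.3 CPM in Mettl14_cKO cells and 151 and 85.0 CPM in control cells. Single Mettl14_cKO cells held 21 of the 34 chain UMIs in cluster 14 and 15 of the 28 in cluster 24. Cluster 11, led by Trf, Wfdc2 and Hoxb13, went the other way. Its 198 Mettl14_cKO cells had 37.7 CPM (244 UMIs) and its 469 control cells 29.7 CPM (161 UMIs). The cell with 230 chain UMIs was in cluster 11, and without it the Mettl14_cKO cells there had 2.18 CPM (14 UMIs), 13.6-fold lower than control (7.89 to 25.5).

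The control-majority clusters, 10 clusters in which at least 90% of cells came from the control library, allow a further comparison of cells that clustered together. Their 233 Mettl14_cKO cells, of 6049, had a chain sum of 4.61 CPM (28 UMIs) and their 7043 control cells 119.5 CPM (11677 UMIs), 25.9-fold lower (17.9 to 39.1). Where such a cluster had at least 20 cells of both libraries, the Mettl14_cKO cells were deeper. Medians were 14700 against 12380 UMIs in cluster 8 and 18190 against 5836 in cluster 9. Cd74 in the same cells had 8.23 CPM (50 UMIs) and 359 CPM (35114 UMIs), 43.7-fold lower (33.1 to 58.9). Ctss had 36.2 and 80.3 CPM, 2.22-fold lower (1.94 to 2.55). Mettl14_cKO cells that clustered with control cells were therefore low in both the chains and Cd74, and closer to control in Ctss. In the 6 clusters with neither library at 90%, the chain sum was 25.95 CPM in 1792 Mettl14_cKO cells and 93.0 CPM in 1641 control cells, 3.58-fold lower (3.17 to 4.065). Cluster 11 is among these 6, and its top cell held 230 of their 349 Mettl14_cKO chain UMIs. This fold therefore rests largely on 1 cell and was not recomputed without it.

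Professional presenting cells stood far above epithelium in the Mettl14_cKO library, and in the control library on 6 macrophage-like cells only. Macrophage-like cells of the Mettl14_cKO library had a chain sum of 9164 CPM, 711-fold that of the epithelium of that library (666 to 759). B-like cells of that library had 9448 CPM, 733-fold (682.5 to 787). Its plasma-like cells, not among the presenting cells named above, had 5291 CPM, 410-fold (380 to 443). The 6 control macrophage-like cells had 22430 CPM (284 UMIs), 192-fold the control epithelium (170 to 216). Of these UMIs 283 came from 3 cells of 1 sub-cluster, and 1 from the other 3 cells. Put as a share, the chain sum of the epithelium was 0.141% of the macrophage-like level in the Mettl14_cKO library and 0.522% in the control library. Cd74 was nearer. Macrophage-like cells had 15240 CPM of Cd74, 79.2-fold the epithelium (77.3 to 81.1), in the Mettl14_cKO library, and 31830 CPM, 89.7-fold (81.1 to 98.9), in the control library. Ctss was 75.8-fold and 66.3-fold higher in macrophage-like than in epithelial-like cells of the Mettl14_cKO and the control library, but only 9.78-fold higher in B-like cells of the Mettl14_cKO library.

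Macrophage-like cells fell into sub-clusters of unequal level. The 81 Mettl14_cKO cells led by C1qb and Apoe had a chain sum of 13770 CPM, and the 86 cells led by Chil3, Lyz2 and Spp1 had 3642 CPM. Mettl14_cKO macrophage-like cells as a whole had Ciita at 14.8 CPM (11 UMIs) and B-like cells at 27.0 CPM (8 UMIs). Ciita was thus detected in the Mettl14_cKO library outside the epithelium, on few UMIs. T or NK-like cells, which should lack class II chains in the mouse, had 49.6 CPM (51 UMIs) in the Mettl14_cKO library and 36.9 CPM (32 UMIs) in the control library. The Mettl14_cKO epithelium lay below that level and the control epithelium above it.

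Cd74 did not keep a fixed relation to the chains in the Mettl14_cKO epithelium. Control epithelial classes had between 2.93 (goblet-like) and 3.49 (unnamed clusters) Cd74 UMIs per chain UMI, leaving out the small tuft-like class. Mettl14_cKO goblet-like cells were close to that, with 3.12, and enteroendocrine-like cells had 1.81. Of the 62 chain UMIs behind that 1.81, single cells held 21 and 15. Mettl14_cKO cycling-like cells had 35.5 Cd74 UMIs per chain UMI, colonocyte-like cells 28.95 and the unnamed clusters 17.1. In the macrophage-like and B-like cells of the same library the figures were 1.66 and 1.58, and in its T or NK-like cells 1.86. The high Cd74 of cycling-like and colonocyte-like Mettl14_cKO cells was thus not accompanied by chains in the proportion seen in any immune class of the library.

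By level, Cd74 in Mettl14_cKO colonocyte-like cells had 291 CPM (1274 UMIs) and in control ones 312 CPM (8260 UMIs), a ratio of 0.934 (0.880 to 0.991). Cycling-like cells had 298 CPM in the Mettl14_cKO and 692 CPM in the control library, 2.32-fold lower (2.26 to 2.38). Goblet-like and enteroendocrine-like cells had 39.0 and 54.8 CPM in the Mettl14_cKO library and 203 and 375 CPM in the control library, 5.19-fold (4.90 to 5.503) and 6.84-fold lower (5.60 to 8.41). So Cd74 was lower, like the chains, in secretory classes, and nearly level in colonocyte-like cells taken as a class. That class value sets Mettl14_cKO cells of cluster 4 against control cells of clusters 8 and 18. The 44 Mettl14_cKO colonocyte-like cells inside control-majority clusters had 17.8 CPM of Cd74 (13 UMIs), against 312 CPM in 1874 control cells, 17.5-fold lower (10.2 to 32.9). The unnamed clusters had 345 CPM (4962 UMIs) in Mettl14_cKO cells and 297 CPM (2281 UMIs) in control cells, a ratio of 1.16 (1.11 to 1.22). Cluster 16 set that value. This cluster, led by Ccl20, Clu and Il4i1, held 224 Mettl14_cKO cells and 0 control cells, with 1248 CPM of Cd74 and a chain sum of 4.38 CPM. In the other unnamed clusters, 1, 5 and 11, Cd74 was lower in Mettl14_cKO cells, with ratios of 0.218, 0.126 and 0.419.

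**Figure D3:**
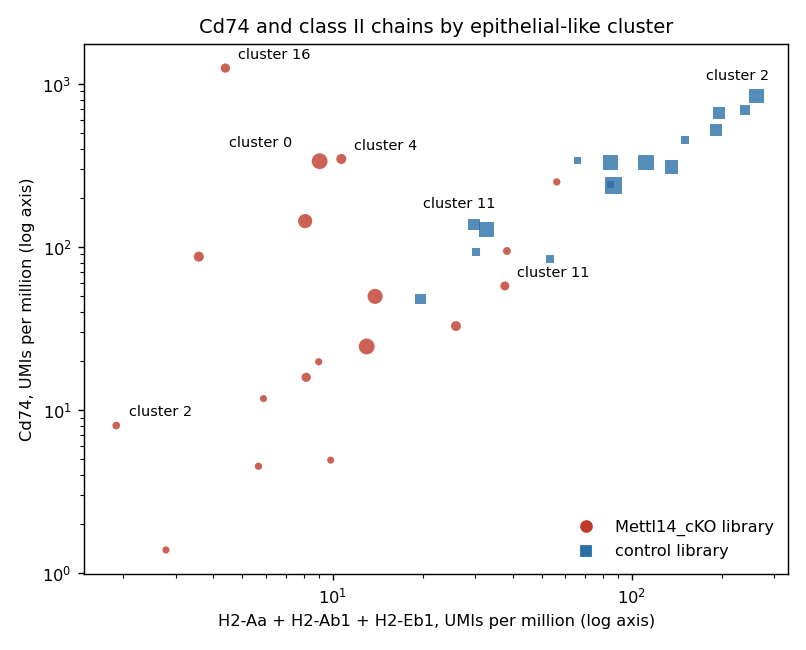
Cd74 against the chain sum, both in CPM on log axes, for each epithelial-like cluster with at least 20 cells of a library; Mettl14_cKO in red, control in blue, marker area growing with the number of cells. Control clusters lie along a band, while Mettl14_cKO clusters 0, 4 and 16 stand at 335, 346 and 1248 of Cd74 with chain sums of 9.06, 10.7 and 4.38.

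In single cells, chain RNA was found in fewer Mettl14_cKO than control epithelial-like cells at the same depth. Each cell was thinned to 1500 UMIs, which left out 482 Mettl14_cKO and 647 control epithelial-like cells that were shallower. A chain UMI was then found in 86 of 5567 Mettl14_cKO cells (1.54%, 1.24 to 1.90) and in 1004 of 8048 control cells (12.5%, 11.8 to 13.2), a difference of -10.93 percentage points (-11.73 to -10.13). Without thinning the shares were 9.31% and 40.0%. T or NK-like cells at 1500 UMIs had a chain UMI in 7.54% (4.84 to 11.1) of 305 Mettl14_cKO cells and in 3.46% (1.51 to 6.71) of 231 control cells, with medians of 1940 and 1651 UMIs before thinning. The Mettl14_cKO epithelial share lies below that background and is not read as expression. The background is not like for like, because epithelial-like cells were deeper, with medians of 8700 and 10400 UMIs before thinning. T or NK-like cells also carried Epcam, at 260 CPM in Mettl14_cKO and 991 CPM in control cells. The part of free RNA in either share was not tested. The control epithelial share lies above the T or NK-like one.

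Among control classes at that depth, cycling-like cells had a chain UMI most often, in 25.1% (22.8 to 27.4). Their Mettl14_cKO counterparts had one in 1.15% (0.628 to 1.91). Colonocyte-like cells had one in 1.47% (0.479 to 3.40) of Mettl14_cKO and 12.4% (10.9 to 13.97) of control cells. Goblet-like cells had one in 2.15% and 6.99%, and enteroendocrine-like cells in 2.11% and 8.78%. For comparison, 61 of 61 B-like and 54.1% (46.0 to 62.1) of 157 macrophage-like Mettl14_cKO cells had one. Cd74 was positive in 17.3% of Mettl14_cKO and 27.6% of control epithelial-like cells, above the 10.5% (7.29 to 14.5) and 9.52% (6.06 to 14.1) of T or NK-like cells. Mettl14_cKO goblet-like cells, with 4.82%, and enteroendocrine-like cells, with 4.23%, lay under the T or NK-like share. Mettl14_cKO colonocyte-like cells had Cd74 in 27.1% (22.4 to 32.1), and control ones in 26.1% (24.1 to 28.1). Ctss was positive in 4.74% and 10.4% of epithelial-like cells. The T or NK-like shares were 11.15% (7.845 to 15.2) and 8.23% (5.025 to 12.55). T or NK-like cells were chosen as a background for the chains only, and whether they make Ctss was not tested. Their Ctss share is therefore not read as a background. Colonocyte-like cells had Ctss in 17.35% (13.5 to 21.8) of Mettl14_cKO and 25.1% (23.15 to 27.2) of control cells. A Ciita UMI was found at this depth in 0 of 5567 Mettl14_cKO epithelial-like cells and in 10 of 8048 control cells (0.124%). A count of 0 allows a share of up to 0.0539% with a UMI at 1500 UMIs (3 counts of the total), which does not limit the share that expresses the gene. At full depth the shares with a Ciita UMI were 0.0496% and 0.989%.

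**Figure D4:**
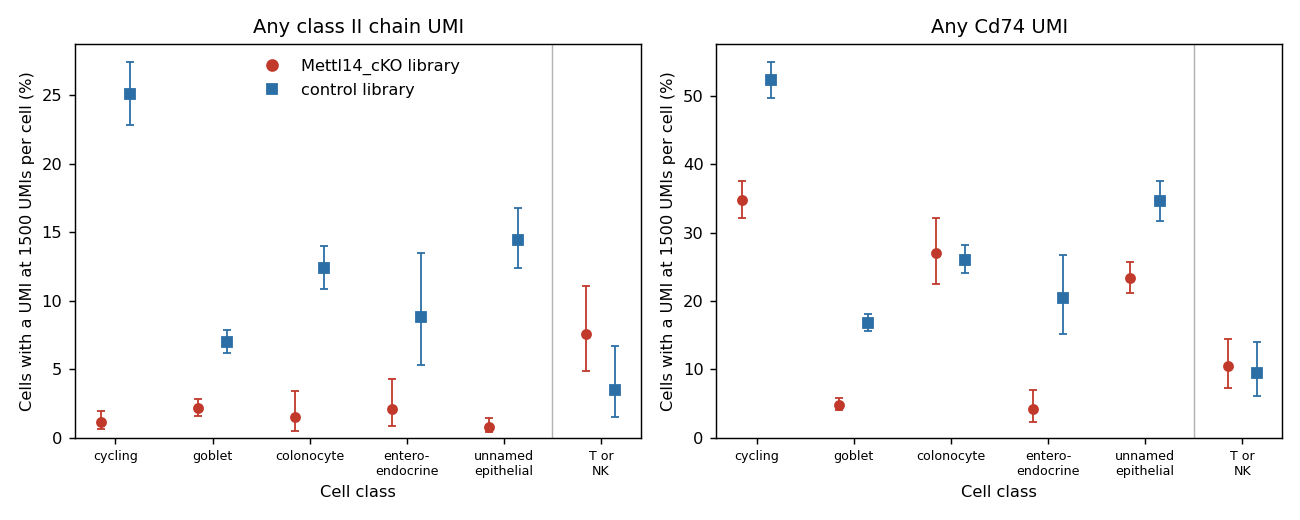
Percent of cells with a chain UMI (left) and with a Cd74 UMI (right) after thinning each cell to 1500 UMIs, by class, Mettl14_cKO in red and control in blue, with exact binomial 95% intervals. Chain shares of all 5 Mettl14_cKO epithelial classes drawn lie under the 7.54% of their T or NK-like cells, while Cd74 in colonocyte-like cells is alike in both libraries (27.1 and 26.1%).

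Chain and Cd74 UMIs met in the same cells in the control library. At 1500 UMIs, 63.5% of control epithelial-like cells with a chain UMI also had Cd74, and 22.5% of those without. In Mettl14_cKO cells the shares were 22.1% of 86 chain-positive and 17.3% of 5481 chain-negative cells. At full depth, 291 control and 9 Mettl14_cKO epithelial-like cells had at least 10 chain UMIs. Of the control ones 181 were cycling-like, which is 12.6% of that class. The 9 Mettl14_cKO cells held 32.8% of all epithelial chain UMIs of their library, and the cell with 230 UMIs alone moved the level to 10.1 CPM when left out. That cell had 319 Cd74 UMIs, 82 Epcam UMIs, 6 UMIs of dendritic markers and 1 of macrophage markers. All 9 cells had at least 1 UMI of an immune marker and 5 of the 9 had 3 or more of B markers, whereas 78.7% of the 291 control cells had an immune UMI and 1 had 3 or more of B markers. Macrophage markers reached 3 UMIs in 2 of the 9 and 29 of the 291 cells, and dendritic markers in 3 of the 9 and 79 of the 291. These cells were deep, with medians of 21620 UMIs in the 9 and 24430 UMIs in the 291. An immune UMI was also common elsewhere. It was found in 69.8% of Mettl14_cKO and 61.6% of control epithelial-like cells with any chain UMI. Of the cells with none, 41.0% and 42.7% had an immune UMI. These immune markers were Ptprc and the macrophage, B and dendritic lists, and the dendritic sum is not read as dendritic RNA below. Narrower sets were found in fewer cells with a chain UMI. For macrophage genes the shares were 4.62% in Mettl14_cKO and 0.115% in control cells. For B genes they were 2.84% and 0.719%, and for Ptprc 1.07% and 0.374%. Cells without a chain UMI had 1.97% and 0.0767%, 1.06% and 0.249%, and 0.474% and 0.1725%, in that order. The part of mixed droplets in the cells of either library was not tested.

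Cells with a UMI of Lgr5, the receptor that marks crypt stem cells, numbered 18 in the Mettl14_cKO and 296 in the control epithelium. Their chain sum was 6.44 CPM (4 UMIs, 1.75 to 16.5) and 249 CPM (1480 UMIs, 237 to 262). Control cells with an Lgr5 UMI were thus above the 109 CPM of control cells without, and were deeper, with a median of 17320 UMIs against 10270. Cd74 in the Lgr5 cells had 8.05 CPM (5 UMIs) and 658 CPM (3909 UMIs).

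The summed macrophage and B markers stood close between the libraries in epithelial-like cells. The dendritic sum was lower in Mettl14_cKO cells. The 12 macrophage markers summed to 28.9 CPM in Mettl14_cKO and 33.6 CPM in control epithelium, with 12 and 10 of them detected. The 10 B markers summed to 3.47 and 2.51 CPM, and the 11 dendritic markers to 34.6 and 55.9 CPM. A sum can rest on 1 gene: in control colonocyte-like cells 1 of the 11 dendritic markers was detected, with 1721 UMIs. The dendritic markers Flt3 and Xcr1 had 6 and 3 UMIs in Mettl14_cKO epithelium and 0 and 3 in control epithelium. The dendritic sum is therefore not read as RNA of dendritic cells. The defining macrophage genes C1qb and Lyz2 had 42 and 96 UMIs in Mettl14_cKO epithelium and 0 and 37 UMIs in control epithelium. C1qa was the other way round, with 3.98 CPM in Mettl14_cKO and 9.02 CPM (972 UMIs) in control epithelium, and 17.5 CPM in control cycling-like cells. S100a9, a neutrophil gene, had 976 UMIs in Mettl14_cKO epithelium and 0 in control epithelium, and Igha 225 and 3. UMIs of C1qb, Lyz2, S100a9 and Igha were thus more numerous in the library with fewer chain UMIs, and those of C1qa less numerous. The part of immune RNA in the chain levels was not tested. With all epithelial-like cells that had any immune UMI left out, the log2 ratio of the chain sum was -3.58, against -3.09 with them. That setting also leaves out 41.0% of Mettl14_cKO and 42.7% of control epithelial-like cells without a chain UMI. Its immune UMIs include the dendritic markers, so it does not single out cells with immune RNA.

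Among the other genes of the pathway, Irf1 was lower, and the transcription factors that sit on the X and Y boxes were near level. Irf1, a factor that interferon-gamma induces and that acts on Ciita, had 29.1 CPM in Mettl14_cKO epithelium and 99.7 CPM in control epithelium, 3.43-fold lower. The receptor chains Ifngr1 and Ifngr2 were on the other side of 1, with 120.1 and 98.0 CPM in Mettl14_cKO and 97.0 and 95.03 CPM in control epithelium, and fall outside the rule for naming genes. Nlrc5, the relative of Ciita that acts on class I genes, had 7 and 123 UMIs, 13.4-fold lower in CPM, and a log2 ratio of -0.98 with 1 CPM added. Socs1, an inhibitor of the pathway, had 28.1 and 17.3 CPM.

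Of the 7 transcription genes, 0 passed 2-fold in either direction (median 0.04). Nfya, a subunit of the Y box factor NF-Y, had 8.20 and 5.43 CPM, and Rfxank, a subunit of the X box factor RFX, had 6.54 and 8.95 CPM. Of 10 lysosomal genes in the matrices, 0 were at least 2-fold lower and 1 higher (median 0.30). That was Ctsh, an aminopeptidase of the lysosome, with 163 and 66.9 CPM, 2.43-fold higher (2.36 to 2.50). The cathepsins Ctsd and Ctsb had 146 and 186 CPM in Mettl14_cKO and 99.3 and 176 CPM in control epithelium. Unlike Ctss, the other lysosomal proteases measured were level or above control. Of 6 co-stimulation and checkpoint genes 5 had enough UMIs and 0 passed 2-fold (median -0.02). Of the other class II genes only H2-DMb2 had at least 10 UMIs, with 10 in Mettl14_cKO and 0 in control epithelium.

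**Figure D5:**
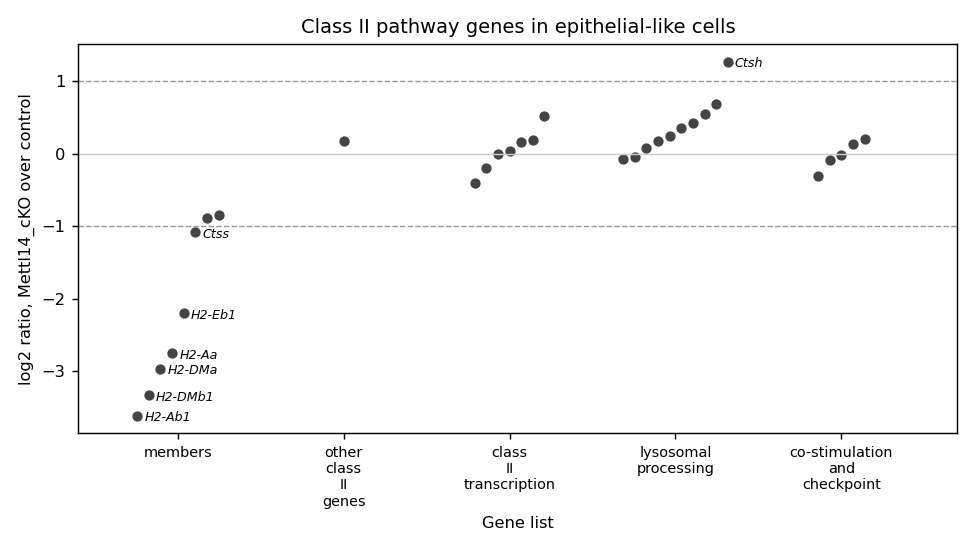
log2 ratio of Mettl14_cKO over control in epithelial-like cells, after adding 1 CPM to both, for the 8 members and for the genes with at least 10 UMIs of 4 pathway lists; dashed lines mark 2-fold. Outside the members, no plotted gene lies below the lower line, and Ctsh lies above the upper one.

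Genes with a pattern much like the chain sum over the 11 class and library points of the epithelium, out of 4297 genes, included Psmb9 (Pearson r 0.9335), Eif2s3y (0.916), Psme1 (0.915) and Psmb8 (0.9125). Psmb8 and Psmb9 are subunits of the immunoproteasome and Psme1 one of its activators. Eif2s3y lies on the Y chromosome and separates the libraries by sex, and these correlations largely describe the step between the libraries. Psmb8 had 11.7 to 59.2 CPM over the Mettl14_cKO points and 129.5 to 330 CPM over the control points. It was picked by its likeness to the chain sum over these same points, so that gap is no separate result. Among the members, r with the chain sum was 0.973 for H2-DMa, 0.892 for H2-DMb1, 0.657 for Ciita, 0.480 for Cd74 and 0.130 for Ctss.

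Genes through which T cells meet class II were read in T or NK-like cells, 394 of them in the Mettl14_cKO and 367 in the control library. Ifng, the inducer of Ciita, was detected in both. It had 59.35 CPM (61 UMIs, 45.4 to 76.2) in Mettl14_cKO and 38.0 CPM (33 UMIs, 26.2 to 53.4) in control cells. Cells of both libraries met in cluster 20, led by Ccl5 and Gzma, where Ifng had 92.1 CPM (69.4 to 119.9) and 38.2 CPM (26.3 to 53.7). Whether Ifng bears on the chain levels was not tested. Lag3, a receptor that binds class II, had 41.8 and 21.9 CPM. Cd4, the co-receptor for class II, had 29 UMIs in Mettl14_cKO cells and 0 in control cells, where the interval reaches 4.25 CPM. Cluster 12, led by Trdc and Il17a, held 217 Mettl14_cKO and 4 control cells, so the T or NK-like mix differed between the libraries. Control T or NK-like cells also carried 991 CPM of Epcam, and Mettl14_cKO ones 260 CPM, against 2989 and 1883 CPM in the epithelium of each library.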

How the data were processed

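The authors deposited UMI counts, 1 matrix of genes and barcodes per library, with no further normalization. Cell Ranger 3.0.0 and Seurat 3 stand in the submitters' processing notes, and per the file headers Cell Ranger was 3.1.0. For the build, the annotation and the end of the transcript that was read, the answer is "not stated" in these sources. A barcode was kept with 500 or more detected genes and a mitochondrial share below 25%. Doublets were removed at a Scrublet score of 0.25 or more (53 Mettl14_cKO and 77 control cells), a limit set after seeing the scores. Clusters came from 2000 variable genes (class II genes left out), 30 principal components, 15 neighbours and Leiden resolution 1, with no integration of the libraries. Names needed 3 or more markers among the 50 leading genes. Cells outside epithelium and T or NK were clustered again (1000 genes, 20 components). UMIs were summed per class and divided by all UMIs of the class (CPM). Sums have exact Poisson intervals, ratios conditional binomial ones and shares Clopper-Pearson ones, and all cover counting error only. Log2 ratios add 1 CPM, and a gene was compared with 10 or more UMIs over both libraries. The functions were tested on simulated data. Coordinates are from GENCODE M21 and promoters from RefSeq. Tools were scanpy 1.11.5 with anndata 0.12.19, leidenalg 0.10.2 and igraph 0.11.9; scikit-learn 1.9.0; pandas 2.3.3 and numpy 2.4.6; scipy 1.17.1; and matplotlib 3.10.9, under Python 3.11.15.

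Named genes are the 8 members, up to 4 genes of each pathway list with the largest ratios, the readers in T cells and the 5 genes most like the chain sum; Ifngr1, Ifngr2 and Ctsb, outside that rule, were named after their values were seen, and leading genes and immune markers to describe clusters. Some results of the interferon-gamma list and of the genes most like the chain sum are not reported here. Members and lists were chosen with earlier results of these data known.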

Additional observations from a re-analysis of the deposited data

Results flagged for a closer look

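Cd74 was higher in the Mettl14_cKO cells of the unnamed epithelial clusters, with a ratio of 1.16, and lower in the cycling-like, the goblet-like, the colonocyte-like and the enteroendocrine-like class; the difference between classes was not tested. Cluster 16, with 224 Mettl14_cKO and 0 control cells, had 1248 CPM, and clusters 1, 5 and 11 had ratios below 1.

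The chain sum was higher in Mettl14_cKO than in control cells within cluster 11, with a ratio of 1.27, and lower within clusters 1, 2, 5, 14 and 24; this difference was not tested either. Without the single Mettl14_cKO cell that held 230 of its 244 chain UMIs, cluster 11 was 13.6-fold lower.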

How the results depend on the processing

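No paired analysis was possible because each genotype had 1 library. Direction was kept under every alternative by the values recomputed under them: each member and the chain sum in epithelium, the chain sum in the 5 classes of 50 or more cells, the 2 ratios to immune cells and the share of positive cells. Cluster 11 changed direction without its top cell (13.6-fold lower). Lgr5 cells, T cell genes, pathway lists and Cd74 by class were not recomputed. The log2 ratio of the chain sum in epithelium (-3.09) was -2.89 with doublets kept, -2.47 with 10 CPM added, -2.85 as a mean over classes, -4.32 with the T or NK-like level subtracted, -3.58 without cells that had an immune UMI and -3.40 without the cell with most chain UMIs of each library, an alternative chosen after seeing the data. The subtraction used T or NK-like UMIs per cell, gene by gene, with negative values cut. In CPM the Mettl14_cKO epithelium (12.9) already lay below the T or NK-like level (49.6). Chain values after subtraction are therefore partly floor values and are not read as support. Cd74 (-0.88) was -0.84 with the strict cell filter, -0.91 with genes over 1% of UMIs left out of the total, -0.85 with 10 CPM added, -0.94 with the T or NK-like level subtracted and -0.54 without immune-UMI cells. The smallest class difference (-2.02) was -1.77 with the lenient filter, -2.34 with the strict one, -1.68 with doublets kept, -1.65 with 10 CPM added and -2.99 after subtraction. Macrophage-like over epithelial-like cells of the Mettl14_cKO library (log2 9.37) gave 9.18 with the lenient filter, 9.55 with the strict one, 9.13 with doublets kept, 9.14 with median-of-ratios scaling, 8.65 with 10 CPM added, 10.69 after subtraction, 9.94 without immune-UMI cells and 9.69 without the top cell. For B-like cells (9.41) the values were 9.25 with the strict filter, 9.21 with doublets kept, 9.24 with class II genes left among the variable genes, 9.04 with median-of-ratios scaling, 8.69 with 10 CPM added, 10.72 after subtraction, 9.99 without immune-UMI cells and 9.73 without the top cell. The difference in shares (-10.93) was -8.65 at 1000 UMIs per cell and -18.82 at 3000. Between 5 and 6 members passed 2-fold. Of the values for single genes and other classes under these alternatives, 90 moved by less than their counting interval and 54 by more. The cause was not tested. Ciita and tuft-like cells are limited by few UMIs.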

Other observations

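The make-up of the chain sum differed between libraries and classes. H2-Eb1 gave 46.7% of chain UMIs in Mettl14_cKO epithelium and 26.8% in control epithelium, and 62.0% and 32.6% in cycling-like cells. In macrophage-like and B-like cells of the Mettl14_cKO library H2-Eb1 gave 29.8% and 33.0%. H2-Ab1 gave 31.5% of chain UMIs in Mettl14_cKO and 52.1% in control epithelium, and H2-Aa 21.8% and 21.1%, where macrophage-like cells of the Mettl14_cKO library had 27.5% and 42.7%. These shares were not tested, and the Mettl14_cKO epithelium rests on 1063 chain UMIs, 230 of them from 1 cell.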
